A study of Mus musculus with 14 samples.

Results

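To ask which functions of the colon responded more or less to colitis when the epithelium lacked the glucocorticoid receptor (GR), the genotype by treatment interaction was computed for every probe as the DSS response of GR iKO mice minus the DSS response of Flox mice. Dextran sulfate sodium (DSS) in drinking water injures the colonic epithelium and is a standard way to cause colitis in mice. A probe was included if the scanner software marked it well above background on all 14 arrays, which held for 23479 of 41174 probes (57.0%), or 79.5% of the 29523 probes tested. These probes covered 13380 named genes of the 15540 tested. The mice were C57BL/6 females of 4 to 6 months on normal chow. Flox mice carried loxP-flanked alleles of the GR gene (GR fl/fl), and GR iKO mice carried the same alleles plus Villin-cre, a constitutive transgene that acts in the intestinal epithelium, so that GR stayed intact in immune, stromal, muscle and nerve cells. The drinking water was plain or held 2.5% DSS for 7 days, and 500 ng of total RNA from each colon was labelled with Cy3. Each genotype had 4 mice on water and 3 on DSS, and each array held the RNA of 1 mouse. A positive interaction means a higher response to DSS in GR iKO than in Flox mice, which can be a larger rise or a smaller fall.

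GR is the nuclear receptor for corticosterone and for synthetic steroids such as dexamethasone. It binds DNA, induces genes such as Fkbp5 and Tsc22d3, and restrains NF-kB and AP-1, the transcription factors that drive cytokine, chemokine and protease genes in injured mucosa. During DSS colitis the crypt epithelium is eroded, myeloid cells enter the mucosa, and what is left of the wall is relatively richer in muscle and nerve, so a level measured in whole colon reflects both cell make-up and RNA per cell. Fewer cells of a type and less RNA per cell cannot be told apart in these samples.

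Levels are given as log2 processed signal minus the 75th percentile of the array, and a response is a difference of such levels. The deleted gene was checked first. Nr3c1 was well above background at 3 probes, and its brightest probe lay at 1.05, 1.17, 1.18 and 1.38 in Flox and at 0.36, 0.57, 0.44 and 0.19 in GR iKO mice on water, and at 1.27, 1.46 and 1.07 in Flox and 0.48, 0.45 and 0.37 in GR iKO mice on DSS. The genotypes did not overlap in either treatment. The difference was −0.80 on water (exact two-sided permutation p = 0.0286) and −0.83 on DSS, where 3 against 3 mice cannot give a p under 0.1. The Nr3c1 interaction was −0.030 (exact two-sided permutation p = 0.96), and it was −0.011 and 0.076 at the other probes. Whether these probes lie in the floxed part of the gene is not known here, and cells outside the epithelium keep GR.

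Some arrays stood apart within their group. The root mean square deviation of an array from its group mean over all included probes was 0.17 to 0.25 on the 8 water arrays and 0.27 to 0.45 on the 6 DSS arrays, with 0.45 for Flox DSS replicate 4 and 0.44 for GR iKO DSS replicate 3. All 13 markers of the colonic epithelium, Vil1, Cdh17, Epcam, Cdx1 and Krt20 among them, were above background on all arrays. A total of 12 of 21 genes of the exocrine pancreas were as well, and their mean level relative to the water arrays was 3.23, 1.48 and 6.91 in Flox mice on DSS, −4.13, 3.83 and −4.0 in GR iKO mice on DSS, and between −3.05 and 2.27 on water. Each group occupied its own position on every slide, so that position and group cannot be told apart.

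In Flox mice 3624 genes rose with DSS (27.1%) and 3815 fell (28.5%). In GR iKO mice 3246 rose (24.3%) and 3218 fell (24.1%). A total of 2545 genes rose in both and 2486 fell in both, whereas 12 rose in Flox and fell in GR iKO, and 14 fell in Flox and rose in GR iKO. Across genes, which are not independent replicates, the responses correlated with a Pearson r of 0.84, from mice that were not shared. The median interaction was −0.0022 over genes, with a 5th percentile of −0.91 and a 95th percentile of 0.87. All values are relative to the middle of each array: scaled on spike-in RNA instead, the median interaction of the included probes moved from 0.024 to 1.42, and the mean log2 spike-in signal was 13.7 to 14 in Flox mice on DSS, 12.8 to 13.4 in GR iKO mice on DSS and 12.2 to 13.0 on water.

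**Figure D1:**
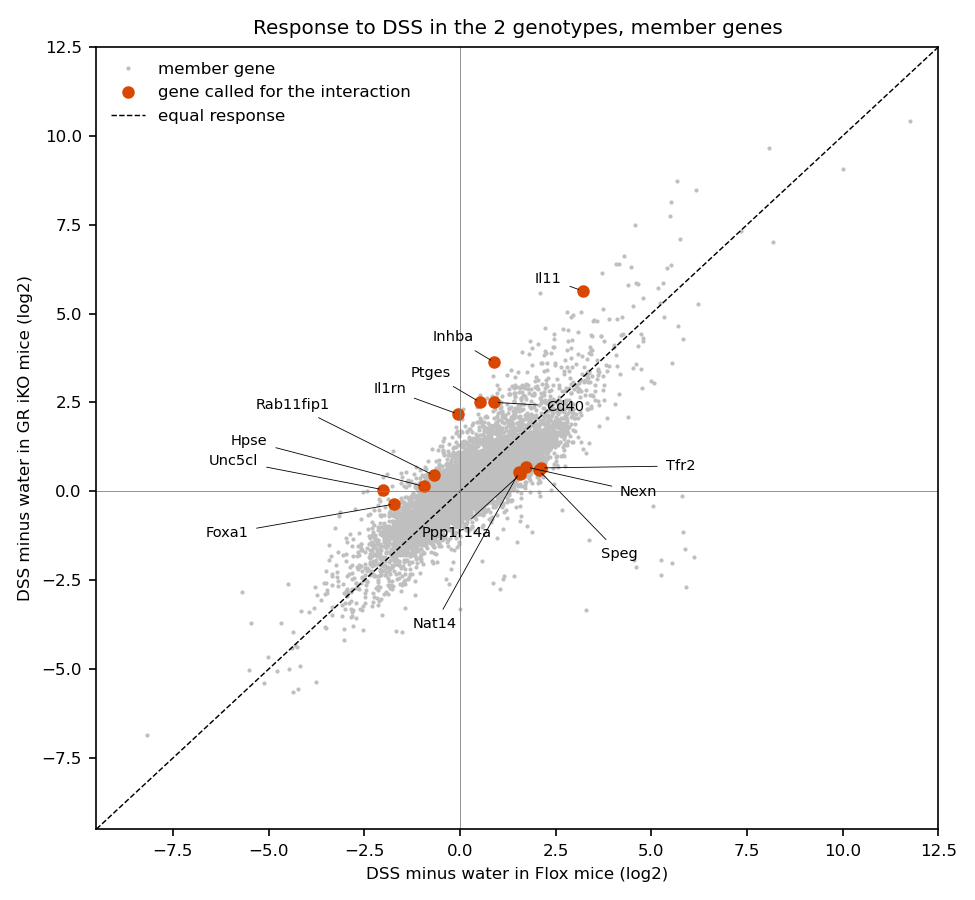
Each grey point is 1 of 13380 genes, placed by its DSS minus water difference in Flox mice (x axis, log2) and in GR iKO mice (y axis, log2). The 14 orange points are the genes whose brightest probe was called for the interaction, 9 above and 5 below the dashed line of equal response.

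The interaction was called at 27 included probes, 0.115% of them (limma adjusted p under 0.05 over all probes tested, where 0.112% were called), with 21 higher (0.0894%) and 6 lower (0.0256%). The fit assumes 1 spread for all groups, whereas the median SD between mice was 0.15 in Flox and 0.15 in GR iKO mice on water and 0.21 and 0.30 on DSS. When water and DSS arrays got their own weights 0 probes were called, and 3700 had an unadjusted p under 0.05. The count was also 0 with slide as a block (lowest adjusted p 0.13), with the replicate number as a block (0.080) and without a filter on dim probes (0.060), with 3952, 4304 and 4326 probes at an unadjusted p under 0.05. Without adjustment, 2257 probes (9.61%) were higher and 2449 (10.4%) were lower at p under 0.05. The called probes named 19 genes. For 14 of these the brightest probe of the gene was called, and for 5 another probe was. The remaining 7 called probes have no gene name here, with 6 higher and 1 lower and values from −1.32 to 2.18. Just past the threshold lay Nfkbid at 1.32 and Ptgs2 at 2.40, both with an adjusted p of 0.051, and just inside it were Ppp1r14a and Nat14 with 0.049.

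Il11 had the lowest p. It encodes interleukin 11, a cytokine of the IL-6 family made largely by stromal cells during mucosal injury. Unc5cl, a death domain protein of mucosal epithelia that can activate NF-kB, and Tfr2, transferrin receptor 2, were next. Their promoters are shown because they belong to the called genes of lowest p that the RefSeq table held (300 bases on the gene's strand, build GRCm38.p6, from 250 bases before to 50 after the start). Capitals mark matches to AP-1 (TGANTCA) or to the NF-kB consensus on either strand. The glucocorticoid receptor half-site AGAACA and the CArG box of smooth muscle genes were also searched and are not in these windows. No promoter of Rab11fip1 was printed.
Il11, chr7:4778092-4778391, minus strand, the second of 2 starts listed: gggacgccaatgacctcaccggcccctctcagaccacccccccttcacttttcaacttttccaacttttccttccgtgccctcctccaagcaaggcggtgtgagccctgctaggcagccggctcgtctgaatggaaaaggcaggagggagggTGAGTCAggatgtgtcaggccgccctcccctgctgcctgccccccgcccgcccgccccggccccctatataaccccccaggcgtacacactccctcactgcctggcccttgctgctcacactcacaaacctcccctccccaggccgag
Unc5cl, chr17:48454651-48454950, plus strand: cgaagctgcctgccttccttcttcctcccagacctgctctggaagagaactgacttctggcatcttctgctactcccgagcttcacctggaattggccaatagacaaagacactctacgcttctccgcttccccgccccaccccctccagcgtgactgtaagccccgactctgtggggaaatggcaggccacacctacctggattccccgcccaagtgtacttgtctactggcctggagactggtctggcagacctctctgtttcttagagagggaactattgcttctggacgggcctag
Tfr2, chr5:137570470-137570769, plus strand, the second of 3 starts listed: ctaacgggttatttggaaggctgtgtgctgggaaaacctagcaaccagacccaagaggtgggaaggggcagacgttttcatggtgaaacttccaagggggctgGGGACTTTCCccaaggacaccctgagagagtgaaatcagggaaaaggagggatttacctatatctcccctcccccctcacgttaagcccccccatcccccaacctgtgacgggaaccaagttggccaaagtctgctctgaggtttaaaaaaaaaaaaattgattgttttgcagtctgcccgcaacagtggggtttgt
The AP-1 match of Il11 lay at −98 to −92 from the start, and 7.81% of the 32851 promoters in the table hold such a match. The NF-kB match of Tfr2 lay at −147 to −138, and 4.51% of all promoters hold one. AGAACA was in 19% of all promoters and a CArG box in 1.63%. For Il11 and Tfr2 only the start with a match is printed, and their other starts had no match to the 4 motifs. The shares are for a single motif in a single window.

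Of the 9 genes called higher through their brightest probe, Il11, Inhba, Il1rn, Ptges and Cd40 are described first. Il11 was at −3.81, −4.17, −3.71 and −3.57 in Flox and −3.78, −4.10, −3.91 and −3.81 in GR iKO mice on water. On DSS it was at −0.85, −0.54 and −0.44 in Flox and 1.83, 2.14 and 1.24 in GR iKO mice, so that it rose in both genotypes and every GR iKO mouse lay above every Flox mouse. Its interaction was 2.43 (SE 0.29, adjusted p 0.033). Inhba encodes the subunit of activin A, a TGF-beta family ligand of tissue injury. It was at −0.95, −1.39 and −0.91 in Flox and 1.96, 0.75 and 2.08 in GR iKO mice on DSS, against −2.31 to −1.62 on water, with an interaction of 2.74 (SE 0.41, adjusted p 0.041). Il1rn, the antagonist of the IL-1 receptor, did not pass the test for a DSS response in Flox mice, where it was at 1.70, 1.18 and 1.77, and rose in GR iKO mice to 4.34, 3.06 and 3.75, from 1.47 to 1.71 on water. Its interaction was 2.22 (SE 0.34, adjusted p 0.041), and a second probe gave 1.81 (adjusted p 0.048). Ptges, the inducible synthase that makes prostaglandin E2, was at −1.73, −1.47 and −1.08 in Flox and 0.85, 0.08 and 0.56 in GR iKO mice on DSS. Its interaction was 1.99 (SE 0.29, adjusted p 0.041). Ptgs2, the cyclooxygenase upstream of it, rose by 1.82 in Flox and by 4.22 in GR iKO mice, and its interaction of 2.40 narrowly missed the threshold. Cd40, a receptor of antigen-presenting cells and of inflamed epithelium, rose by 0.89 in Flox and by 2.51 in GR iKO mice (interaction 1.62, SE 0.26, adjusted p 0.044). It was at −1.73, −2.25 and −2.09 in Flox and at −0.35, −0.89 and −0.62 in GR iKO mice on DSS, without overlap.

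**Figure D2:**
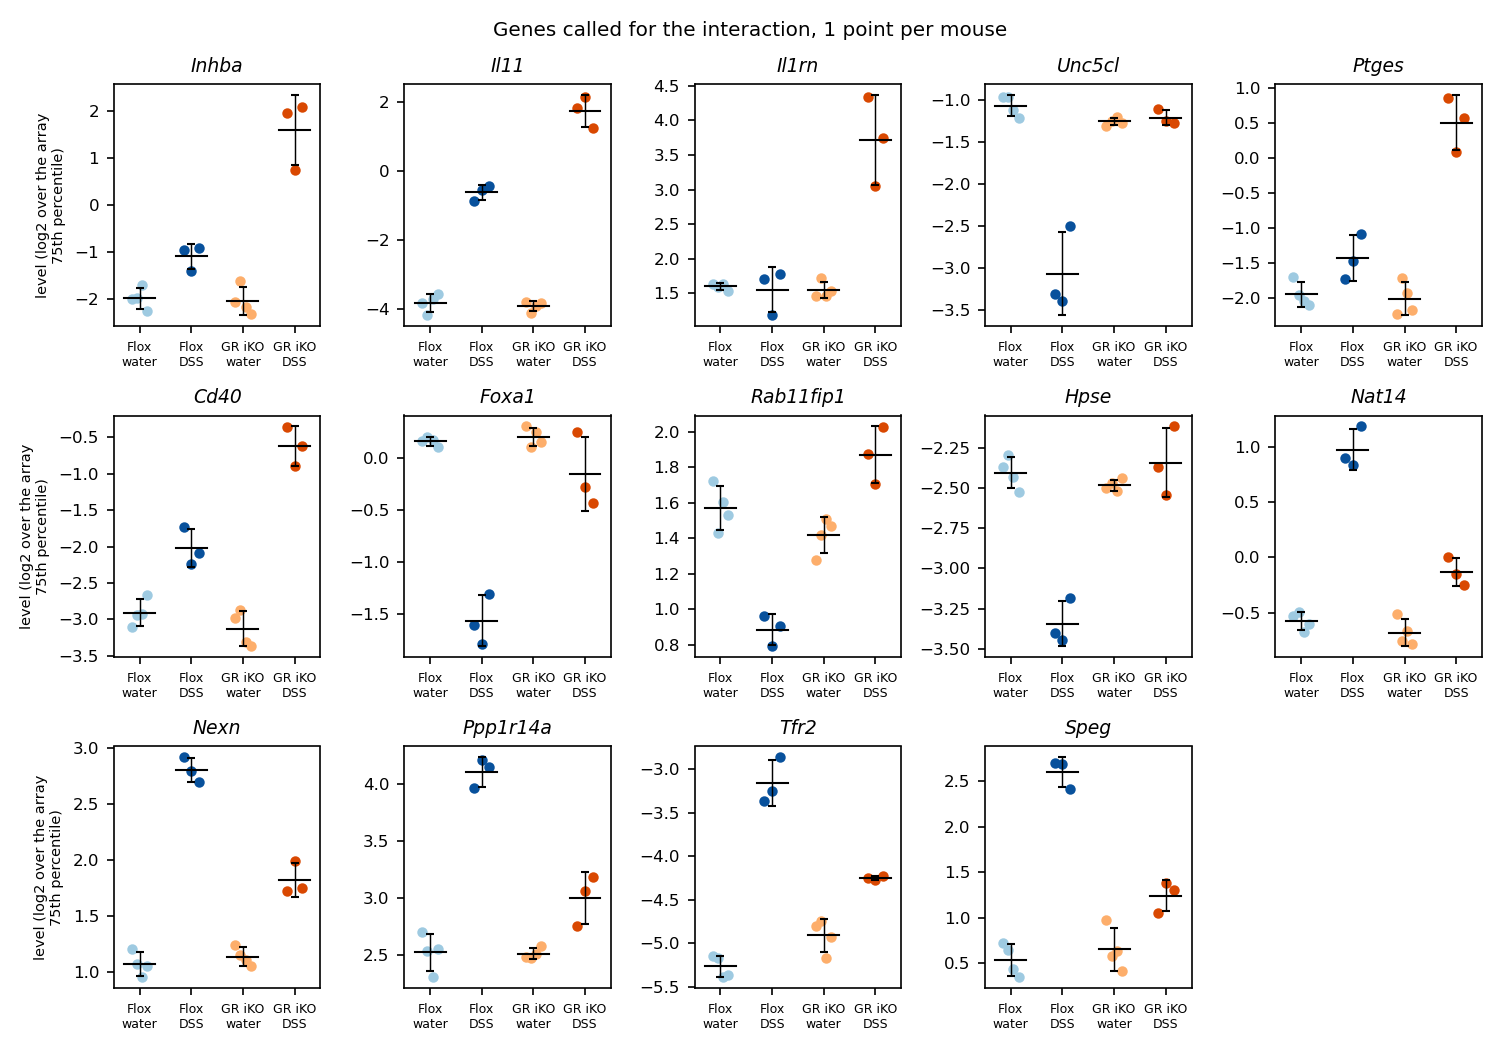
The 14 genes called through their brightest probe, with 1 point per mouse, a line at the group mean and bars of 1 SD. The y axis is the level as log2 over the 75th percentile of the array. In each panel the 3 GR iKO mice on DSS lie apart from the 3 Flox mice on DSS, for example Il11 at 1.24 or more against −0.44 or less. The genes were selected by their interaction, which favours such a gap. Of all included genes, 11.2% lay apart with GR iKO above Flox and 14% with GR iKO below.

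The other 4 of these 9 genes, Unc5cl, Foxa1, Hpse and Rab11fip1, fell with DSS in Flox mice. Unc5cl was at −0.96, −0.97, −1.12 and −1.21 in Flox and −1.30, −1.24, −1.20 and −1.27 in GR iKO mice on water. On DSS it fell to −3.31, −3.40 and −2.50 in Flox mice, and it was at −1.11, −1.24 and −1.27 in GR iKO mice, the same range as on water. The interaction was 2.05 (SE 0.25, adjusted p 0.033). Foxa1, a forkhead factor of endodermal epithelia, fell by 1.72 in Flox mice and its difference in GR iKO mice was −0.36 (adjusted p 0.085). Its levels on DSS were −1.60, −1.79 and −1.30 in Flox and 0.24, −0.28 and −0.44 in GR iKO mice (interaction 1.36, SE 0.22, adjusted p 0.049). Hpse encodes heparanase, which cleaves heparan sulfate. It fell to −3.40, −3.45 and −3.18 in Flox mice and was at −2.37, −2.54 and −2.11 in GR iKO mice, close to the −2.52 to −2.29 of water (interaction 1.08, SE 0.17, adjusted p 0.041). Rab11fip1, an effector of the recycling endosome GTPase Rab11, fell in Flox mice to 0.96, 0.79 and 0.90 and rose in GR iKO mice to 1.88, 1.71 and 2.03. Its interaction was 1.14 (SE 0.16, adjusted p 0.041), although its second probe gave 0.37.

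Called through a probe other than the brightest were Ptprc at 1.38, the leukocyte phosphatase CD45, Frk at 1.12, an epithelial Src-family kinase, Id2 at 1.07, an inhibitor of helix-loop-helix factors, Itga3 at 1.05, a laminin receptor subunit, and Zdhhc5 at 0.87, a palmitoyl transferase. Their brightest probes ran the same way, from 0.58 for Zdhhc5 to 0.98 for Ptprc, with adjusted p of 0.060 to 0.11. At the called probe Id2 fell by 0.38 in Flox mice and rose by 0.69 in GR iKO mice, and Frk fell by 0.51 and rose by 0.61, so that both moved in opposite directions, as Rab11fip1 did. Itga3 rose in both genotypes. These 5 were named after their values were seen.

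Of the 5 genes called lower through their brightest probe, Speg, Nexn and Ppp1r14a are muscle genes. Speg, a kinase of striated and smooth muscle, rose in Flox mice from 0.35 to 0.73 on water to 2.69, 2.69 and 2.42 on DSS, and in GR iKO mice from 0.42 to 0.97 to 1.05, 1.39 and 1.30. The interaction was −1.47 (SE 0.22, adjusted p 0.041), and a second probe gave −0.73. Nexn, the F-actin binding protein nexilin, was at 2.92, 2.79 and 2.70 in Flox and 1.72, 1.99 and 1.75 in GR iKO mice on DSS (interaction −1.05, SE 0.15, adjusted p 0.041). Ppp1r14a encodes CPI-17, the inhibitor of myosin phosphatase in smooth muscle. It was at 3.96, 4.20 and 4.14 in Flox and 2.75, 3.06 and 3.18 in GR iKO mice on DSS, with an interaction of −1.09 (SE 0.18, adjusted p 0.049). Tfr2 rose in Flox mice by 2.11 and in GR iKO mice by 0.66, to −3.36, −3.25 and −2.87 against −4.25, −4.27 and −4.22 (interaction −1.45, SE 0.20, adjusted p 0.041). Nat14, an acetyltransferase-like gene, was at 0.90, 0.84 and 1.18 in Flox and 0.0033, −0.15 and −0.25 in GR iKO mice (interaction −1.0, SE 0.17, adjusted p 0.049). All 5 rose in both genotypes and did not overlap between genotypes on DSS, as 14% of all included genes did not in that direction and 11.2% did not in the other. Scaled on spike-in RNA the interactions of Nexn, Ppp1r14a and Nat14 turned positive, at 0.34, 0.30 and 0.39, and those of Speg and Tfr2 were −0.078 and −0.055. The 7 genes next in order of p, with an interaction of −1.04 to −1.27 and an adjusted p of 0.055 to 0.060, were Smarca1, a chromatin remodeller, Dmtn, an actin bundling protein, Taf9b, Cavin2, a protein of caveolae, Plpp7, Zfp651 and Rragd, a GTPase of lysosomal nutrient sensing. In the other direction these were Nfkbid, an inhibitor of NF-kB, Ptgs2 and Arl5c at 1.93 (adjusted p 0.054).

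The same interaction was then read over 52 lists of genes with a common role, and over 1 list added later. Of these lists, 27 had at least 3 genes at an unadjusted p under 0.05 in 1 direction, a called gene, or at least 90% of 7 or more genes on 1 side, or were a list of inflammation genes assayed separately in this model. The other 26 had median interactions between −0.39 and 1.00. For comparison, 49.7% of included genes had a positive and 50.3% a negative interaction, 9.19% were higher and 12.2% lower at an unadjusted p under 0.05.

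**Figure D3:**
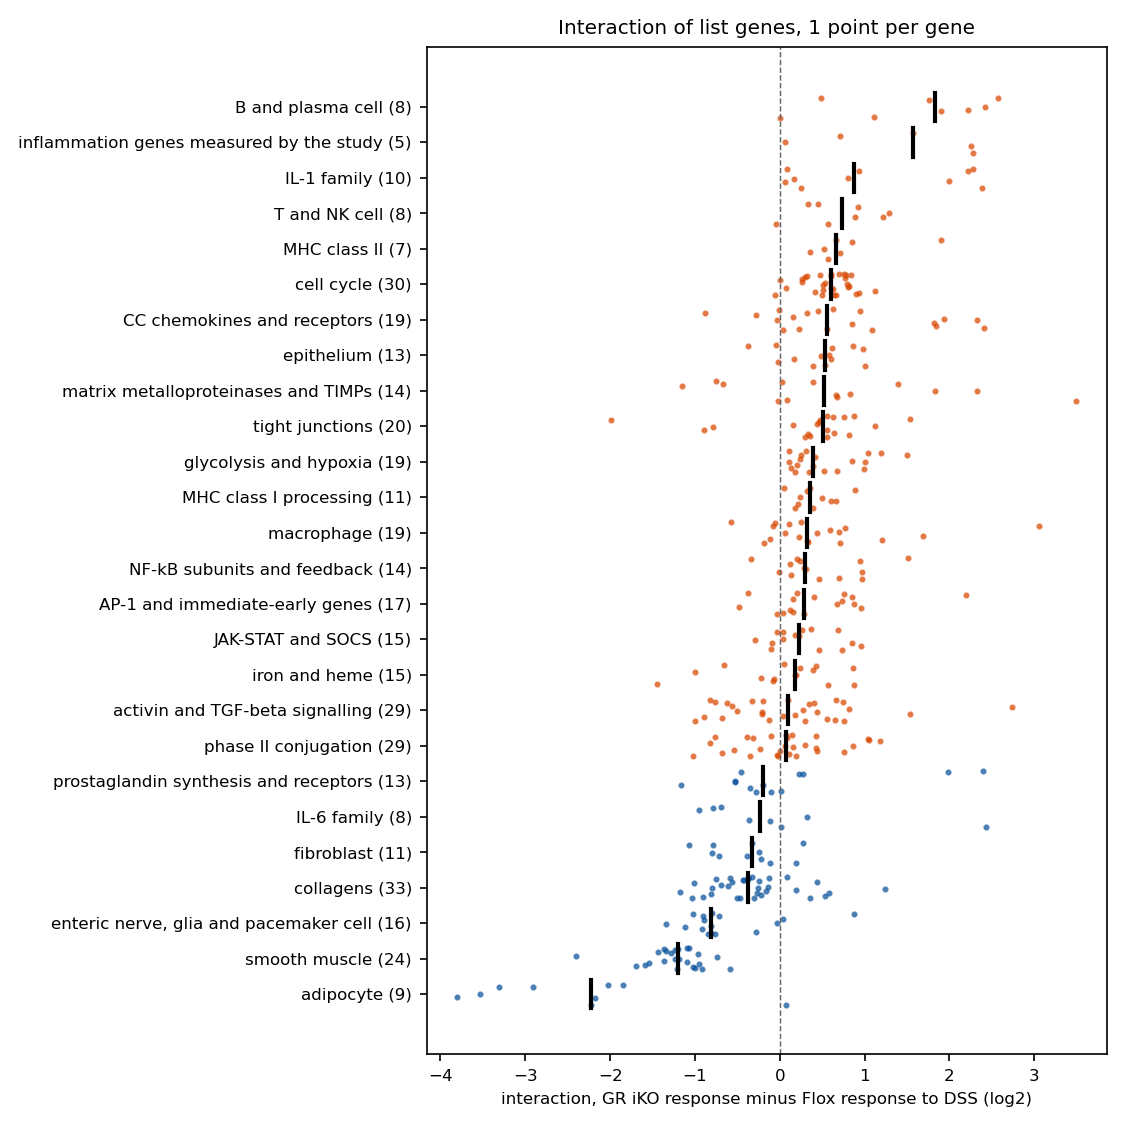
Interaction of each included gene (x axis, log2) for 26 lists, 1 point per gene, with the median as a black bar and the number of genes in parentheses. Smooth muscle genes lie between −2.41 and −0.59, and IL-1 family genes between 0.059 and 2.38. On the uncentred spike-in scale both lists' medians are above 0, at 0.19 and 2.26.

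Among smooth muscle genes, which make the contractile apparatus of the gut wall, all 24 included genes of 25 had a negative interaction, 23 of them at an unadjusted p under 0.05, against 12.2% of all genes, and 1 was called. The median response was 1.41 in Flox and 0.19 in GR iKO mice, and the median interaction was −1.20. In Flox mice 21 of the 24 rose with DSS, and in GR iKO mice 8 rose and 1 fell. The mean of the list relative to the water arrays was 1.43, 1.36 and 1.56 in Flox and −0.38, 0.65 and 0.38 in GR iKO mice on DSS, with water arrays between −0.29 and 0.34. The Flox mice were therefore all above the GR iKO mice, among which replicate 1 was below every water array. Smtn, smoothelin, had an interaction of −1.70 (SE 0.35, adjusted p 0.064), Lmod1, leiomodin, −1.35 (SE 0.30, adjusted p 0.069), and Mylk, the myosin light chain kinase, −1.07 (SE 0.24, adjusted p 0.070). Pln, the calcium pump regulator phospholamban, was the lowest at −2.41, and Acta2 was at −1.24 and Myh11 at −1.19. Without Flox DSS replicate 4 and GR iKO DSS replicate 3, 19 of the 24 were called lower, where 10.9% of all genes were. That pair was chosen after seeing the data, as the arrays whose removal raised the number of calls most, so the counts without it are a description. Without GR iKO DSS replicate 3 alone 19 were called, where 4.88% of all genes were lower and 4.11% higher, and without Flox DSS replicate 4 alone 6 were called, where 5.63% were lower and 3.48% higher. Within the slides that held all groups the median was −0.45 on slide 1 and −1.15 on slide 4, with 1 mouse per group. On the uncentred spike-in scale the median was 0.19 and 5 of the 24 were negative. On water the genotypes differed by a median of 0.0031 in these genes.

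Nerve and glial genes ran the same way. Of 16 included genes, 14 had a negative interaction, 10 at an unadjusted p under 0.05 and 0 called, with a median of −0.81 and median responses of 2.33 in Flox and 1.44 in GR iKO mice. In both genotypes 14 of the 16 rose. The mean of the list on DSS was 2.36, 2.13 and 1.88 in Flox and 1.54, 1.67 and 1.20 in GR iKO mice, without overlap. S100b, a glial calcium-binding protein, had an interaction of −1.35 (SE 0.31, adjusted p 0.071), and Stmn2, a neuronal tubulin regulator, −0.79 (SE 0.21, adjusted p 0.086). Npy, a neuropeptide, was at 0.87. Without the pair of arrays 9 were called lower, where 10.9% of all genes were. Fibroblast genes had a median of −0.32 with 4 of 11 lower at an unadjusted p under 0.05, among them Dpt at −0.78, Sparc at −0.80 and Postn at −1.07, and collagens −0.38 with 8 of 33 lower and 1 higher, among them Col14a1 at −1.18, Col16a1 at −0.75 and Col11a1 at −0.80. All of these genes had adjusted p of 0.076 or more. On the uncentred spike-in scale the medians of these 3 lists were positive, at 0.58, 1.07 and 1.01.

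**Figure D4:**
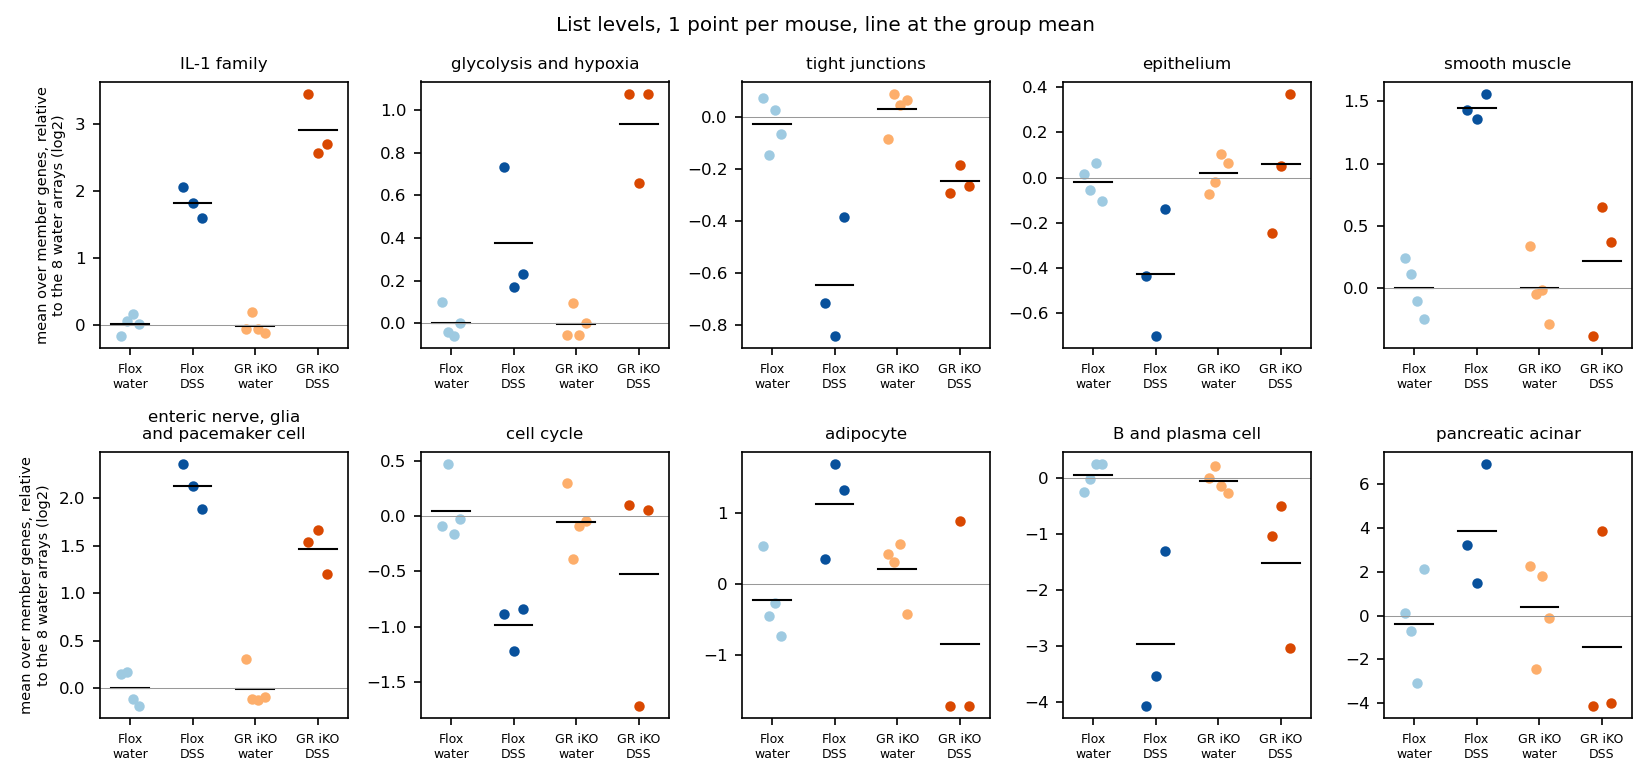
Mean over the included genes of 10 lists, relative to the mean of the 8 water arrays (y axis, log2), with 1 point per mouse and a line at the group mean. Smooth muscle reaches 1.36 to 1.56 in Flox and −0.38 to 0.65 in GR iKO mice on DSS, whereas the adipocyte and pancreatic acinar lists of GR iKO replicate 3, at 0.89 and 3.83, lie far from those of the other GR iKO mice on DSS.

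The epithelial markers had a median response of −0.43 in Flox and 0.096 in GR iKO mice, and 10 of 13 had a positive interaction, with 5 at an unadjusted p under 0.05 and 0 called. In Flox mice 5 fell and 2 rose, and in GR iKO mice 1 fell and 2 rose. The mean of the list was −0.43, −0.70 and −0.14 in Flox and −0.24, 0.053 and 0.37 in GR iKO mice on DSS, which overlap. Cdh17, an intestinal cadherin, had an interaction of 0.98 (SE 0.28, adjusted p 0.10), Cdx1, a homeobox factor of intestine, 1.00 (SE 0.36, adjusted p 0.16), and Hnf4a, a nuclear receptor of enterocytes, 0.86 (SE 0.25, adjusted p 0.10). Tight junction genes were close to this. Their median response was −0.77 in Flox and −0.20 in GR iKO mice, 17 of 20 had a positive interaction, and 7 were higher and 2 lower at an unadjusted p under 0.05, with 0 called. In Flox mice 13 fell and 2 rose, and in GR iKO mice 8 fell and 4 rose. The list was at −0.72, −0.84 and −0.38 in Flox and −0.29, −0.19 and −0.27 in GR iKO mice, without overlap. Cgn, the junctional plaque protein cingulin, had an interaction of 1.13 (SE 0.32, adjusted p 0.10; second probe 0.088) and Marveld3 0.81 (SE 0.22, adjusted p 0.088; second probe 0.30). Cldn10, a claudin that forms ion pores, went the other way at −1.99 (SE 0.42, adjusted p 0.065), and Cldn5, a claudin of endothelium, was at −0.78. Ephb2, a receptor of the crypt base, was at 0.97, Rnf43, a Wnt antagonist of crypt cells, at 0.81, and Nkd1, another Wnt feedback gene, at −0.98. The zinc importer Slc39a4 was at 1.04 (adjusted p 0.11), the mitochondrial carnitine carrier Slc25a20 at 1.03 (adjusted p 0.12) and the colonic butyrate transporter Slc5a8 at 0.91 (adjusted p 0.23), the last with 1 missing value, in GR iKO DSS replicate 3. Slc25a20 was the highest of 20 fatty acid oxidation genes, whose median was −0.098. Slc5a8 is 1 of 19 absorption and ion transport genes, whose median interaction was 0.24. The median response of these 19 was −1.10 in Flox and −1.22 in GR iKO mice. Their mean on DSS was −1.83 to −0.51 in Flox and −1.68 to −0.72 in GR iKO mice, which overlap. Of 12 goblet cell markers 1 was higher at an unadjusted p under 0.05, Spdef, a factor of secretory cells, at 1.71 (adjusted p 0.21), the highest of the list. Of the 12 markers 4 were negative, the lowest at −1.62. The goblet cell median was 0.35, and it was 2.48 within slide 1 and −1.42 within slide 4.

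In the IL-1 family, the upstream cytokines of mucosal inflammation, all 10 included genes had a positive interaction, 5 at an unadjusted p under 0.05, and Il1rn was called. The median response was 1.80 in Flox and 2.93 in GR iKO mice, and the list was at 2.05, 1.82 and 1.59 in Flox and 3.46, 2.56 and 2.70 in GR iKO mice on DSS. Il1b itself, the main secreted ligand, was at 3.00, 2.62 and 1.94 against 5.38, 3.75 and 5.32, with an interaction of 2.27 (SE 0.58, adjusted p 0.082). Il1rl1, the receptor for IL-33, was at 0.38, 0.18 and −0.024 against 3.05, 1.96 and 2.52 (interaction 2.38, SE 0.47, adjusted p 0.060; second probe 1.47), and Il1r2, a decoy receptor, had an interaction of 2.00 (SE 0.72, adjusted p 0.17). The ligand Il33 was at 0.17 and the signalling receptor Il1r1 at 0.059. Without the pair of arrays 5 of the 10 were called higher, where 8.93% of all genes were. Within slides the median was 0.26 on slide 1 and 1.64 on slide 4. In the IL-6 family the median was −0.24 and the mean interaction −0.017, with 3 of 8 included genes positive and 5 negative. The list was at 1.65 to 1.78 in Flox and 1.33 to 1.89 in GR iKO mice on DSS, which overlap. The receptor genes Il11ra1 at −0.69 (adjusted p 0.068) and Cntfr at −0.95 (adjusted p 0.20) ran against Il11. A list of 10 inflammation genes follows those assayed separately in this model, so its direction is not independent evidence. On all arrays 5 of them were above background, and the other 5 were left out by that rule. The median interaction of the 5 was 1.57 with 0 called, from Tnf at 2.25 (adjusted p 0.098), Il1b, and S100a9 at 1.57 (adjusted p 0.40) to Cd68 at 0.71 (adjusted p 0.35) and Adgre1, the macrophage marker F4/80, at 0.063 (adjusted p 0.95).

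Of 14 NF-kB subunits and inhibitors, 12 had a positive interaction and 5 were higher at an unadjusted p under 0.05, with a median of 0.30 and 0 called. Tnfaip3, the ubiquitin-editing inhibitor A20, was at 1.51 (SE 0.30, adjusted p 0.060), with levels of 2.51, 1.97 and 2.12 in Flox and 4.12, 3.36 and 3.54 in GR iKO mice on DSS. The inhibitors Nfkbia and Nfkbie were both at 0.97 (adjusted p 0.088), whereas the subunits Rela and Nfkb2 were at 0.31 and −0.015. CC chemokines and receptors had a median of 0.55 with 3 genes higher and 1 lower of 19, led by the lymphoid homing receptor Ccr7 at 1.94 (SE 0.51, adjusted p 0.087), Ccl4 at 2.32 (adjusted p 0.18) and Ccl5 at 1.84 (adjusted p 0.24). Relative to all genes this median was 0.069 without GR iKO DSS replicate 1 and 0.89 without GR iKO DSS replicate 4, and it was 0.0059 within slide 1 and 0.10 within slide 4. Csf2rb, the shared receptor chain for GM-CSF, IL-3 and IL-5, was at 1.39 (adjusted p 0.079). In the JAK-STAT list the median was 0.23, with Jak2 at 0.73 (adjusted p 0.084), Stat4 at 0.95 and Socs3 at 0.69. In the AP-1 list it was 0.28, with Fosl1 at 2.19 (adjusted p 0.13), Ier3 at 0.67 and Maff at 0.73. Macrophage markers had a median of 0.32 with 3 of 19 higher, namely Cd14, the lipopolysaccharide co-receptor, at 1.69 (adjusted p 0.074), Chil3 at 3.06 (adjusted p 0.16) and Ly6c2 at 0.77. Relative to all genes their median was 0.016 without Flox DSS replicate 4 and 0.14 without GR iKO DSS replicate 1, and it was −0.43 within slide 1 and 0.89 within slide 4. T and NK cell markers had a median of 0.73 with 3 of 8 higher, Lck at 0.89, Cd2 at 1.29 and Cd5 at 1.22. MHC class I and class II genes were positive in 11 of 11 and 7 of 7, with medians of 0.36 and 0.66 and 0 at an unadjusted p under 0.05. Within slide 1 these medians were −0.43 and −0.0092, and within slide 4 they were 1.03 and 2.00. Without Flox DSS replicate 4 they were 0.21 and 0.29 relative to all genes. Of 25 interferon-stimulated genes 2 were higher at an unadjusted p under 0.05, where 9.19% of all genes were. These were Oas3 at 0.95 (adjusted p 0.11) and Ifih1, a sensor of double-stranded RNA, at 0.65 (adjusted p 0.18). The median of the 25 was 0.25, and it was −0.50 within slide 1 and 1.73 within slide 4. Of 3 included neutrophil markers 1 was higher at an unadjusted p under 0.05, Ncf1, a subunit of the phagocyte oxidase, at 1.00 (adjusted p 0.13).

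Genes of matrix breakdown and of hypoxia also had higher responses by count. The matrix metalloproteinases and their inhibitors had a median of 0.53 with 4 of 14 higher and 1 lower at an unadjusted p under 0.05. Mmp13, collagenase 3, had the largest positive interaction of any included gene, 3.49 (SE 0.63, adjusted p 0.055). It rose from −2.26 to −1.32 on water to 0.42, −0.32 and 0.34 in Flox and 5.14, 2.98 and 3.05 in GR iKO mice. Mmp10, stromelysin 2, was at 2.32 (SE 0.43, adjusted p 0.055) and Mmp9, gelatinase B, at 1.82 (SE 0.51, adjusted p 0.096). All 19 glycolysis and hypoxia genes had a positive interaction, 6 at an unadjusted p under 0.05 and 0 called, with median responses of 0.17 in Flox and 0.67 in GR iKO mice. Slc2a1, the glucose transporter GLUT1, was at 4.58, 3.86 and 4.22 against 5.14, 5.25 and 5.09 (interaction 0.99, SE 0.20, adjusted p 0.064), and Hk2, hexokinase 2, had an interaction of 1.49 (SE 0.33, adjusted p 0.067) and Vegfa 0.85 (adjusted p 0.13). The median interaction of this list did not keep its sign between slides, with 1 mouse per group on each: within slide 1 it was −0.26, and within slide 4 it was 0.83. In the activin and TGF-beta list Inhba was the exception, as the median over 29 genes was 0.092, with Smad4 at 0.66 (adjusted p 0.097), Bmpr1a at −0.63 (adjusted p 0.064) and Ltbp1 at −0.82. In the prostaglandin list Ptges and Ptgs2 stood against a median of −0.20, and the receptor Ptger3 was at −1.16 (adjusted p 0.092). Of 8 included EGF receptor ligands and receptors, 5 had a positive and 3 a negative interaction, with a median of 0.30 and the lowest at −1.11. Their median response was 0.50 in Flox and 0.48 in GR iKO mice. Among them, Egfr at 0.64 and Tgfa at 0.77 had adjusted p of 0.14 and 0.13.

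Glucocorticoid target genes had a median of 0.21, with 6 of 11 positive, 1 at an unadjusted p under 0.05 and 0 called. Fkbp5 was at −0.45, Per1 at −0.44 and Tsc22d3, which encodes GILZ, at 0.29, and Ddit4, a stress-induced inhibitor of mTORC1, at 0.81 (SE 0.21, adjusted p 0.082). Mt1, metallothionein 1, differed by genotype before DSS. It was at 2.62, 3.38, 3.30 and 3.29 in Flox and 5.90, 5.92, 6.01 and 6.31 in GR iKO mice on water, a difference of 2.89 (adjusted p 0.00076). On DSS it rose in Flox mice by 2.57 and in GR iKO mice by 0.70, to 5.73, 5.33 and 6.08 against 7.10, 6.22 and 6.87, and the interaction was −1.87 (SE 0.35, adjusted p 0.060; second probe −1.94). Of the metal transport and heme genes, Heph was at 0.57, Hmox1 at 0.87, Cp at 0.87 and Slc39a13 at −0.66, with adjusted p of 0.11 to 0.18, and the iron list with Tfr2 had a median of 0.17.

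The medians of 5 lists of core metabolism and of protein synthesis and breakdown lay close to the middle of all genes. The median interaction was −0.12 over 79 oxidative phosphorylation genes, 0.0034 over 75 mitochondrial ribosome genes, −0.12 over 76 cytoplasmic ribosome genes, 0.011 over 14 citric acid cycle genes and 0.044 over 38 proteasome genes. In these 5 lists 0 genes were higher and 3 lower at an unadjusted p under 0.05, namely Ndufb10 at −0.66, Ndufs7 at −0.59 and Rpl38 at −0.60. By sign, 60 of 79 oxidative phosphorylation and 60 of 76 cytoplasmic ribosome genes were negative, against 50.3% of all genes. Within slide 1 the 5 medians were between −0.52 and −0.40. The median was 0.21 over 17 tRNA synthetase genes, 13 of them positive, and 0.15 over 22 ribosome biogenesis genes, 16 of them positive. Acadl, of fatty acid oxidation, was at 0.57 (adjusted p 0.097), whereas the median of the 20 genes of that list was −0.098 and 11 were negative. Phase II conjugation genes had a median of 0.078 with 5 of 29 lower and 2 higher, Gstt1 at −0.83, Sult4a1 at −0.76 and Gstm4 at −0.35 among the former. The cytochrome P450 genes had a median of −0.26, with 19 of 31 negative and the lowest at −2.54. Their 2 members at an unadjusted p under 0.05 went the other way, Cyp2j6 at 0.76 and Cyp4f18 at 1.29.

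Some of the largest interactions came from genes that varied between mice of 1 group. The 5 lowest were exocrine pancreas genes, Pnliprp1 at −8.60, Try5 at −7.97, 2210010C04Rik at −7.60, Cpb1 at −7.58 and Prss3 at −7.52, with adjusted p of 0.22 to 0.36. Pnliprp1, a pancreatic lipase, was at 5.56, 4.05 and 9.25 in Flox and −4.66, 6.15 and −5.00 in GR iKO mice on DSS, and at −3.11 to 3.81 on water. Adipocyte genes had a median of −2.23 with 7 of 9 lower at an unadjusted p under 0.05 and 0 called. Without the pair of arrays, chosen after seeing the data, 8 were called lower, where 10.9% of all genes were. It includes GR iKO DSS replicate 3, the GR iKO mouse on DSS with the high adipocyte level, so this count is only a description. The mean of that list was 0.35, 1.70 and 1.33 in Flox and −1.71, 0.89 and −1.72 in GR iKO mice, and its median was 0.29 within slide 1 and −2.60 within slide 4. Adipoq, adiponectin, was at −3.53 (SE 1.15, adjusted p 0.13), Lpl, lipoprotein lipase, at −2.18 (adjusted p 0.10) and Plin4, a lipid droplet protein, at −2.02 (adjusted p 0.096). Of 7 skeletal muscle markers 2 were lower at an unadjusted p under 0.05, Ckm, muscle creatine kinase, at −2.10 (adjusted p 0.065) and Acta1, skeletal actin, at −0.88 (adjusted p 0.16; 0.51 with spike-in scaling). The part of fat, pancreas and skeletal muscle RNA in the other results was not tested. B and plasma cell genes had a median of 1.83 with 8 of 8 positive and 1 at an unadjusted p under 0.05, Sdc1 at 0.49. They were at −4.08, −3.54 and −1.31 in Flox and −1.03, −0.50 and −3.04 in GR iKO mice on DSS, and the median was 4.15 within slide 1 and −1.26 within slide 4. Cxcl13, the chemokine of B cell follicles, at 2.88 and Hoxb13, a homeobox gene of the posterior gut, at 2.86 split in the same way: Hoxb13 was at −2.14, −3.07 and 1.71 in Flox and 2.36, 2.46 and −0.16 in GR iKO mice on DSS, against 3.90 to 4.89 on water. Cell cycle genes had a positive interaction in 29 of 30, with a median of 0.61 and 0 at an unadjusted p under 0.05. GR iKO replicates 1 and 4 were at 0.10 and 0.059, close to water, and replicate 3 was at −1.72, below the Flox mice at −0.89, −1.23 and −0.84. Their median was −0.93 within slide 1 and 0.94 within slide 4. Without the pair of arrays, chosen after seeing the data, 20 of the 30 were called higher, where 8.93% of all genes were. That pair includes GR iKO DSS replicate 3, the GR iKO mouse with the low cell cycle level, so this count is only a description. F10, coagulation factor X, at 2.93 (adjusted p 0.077) completed the 5 highest interactions with Mmp13, Chil3, Cxcl13 and Hoxb13.

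All 14 named genes called through their brightest probe kept their sign in each fit that left out 1 array, Il11 between 2.23 and 2.68 and Speg between −1.56 and −1.36. They were selected by this test on all arrays, so a change of sign was unlikely in advance. Of the 14 genes, 14 were still called without Flox DSS replicate 4. Without Flox DSS replicate 2, 0 were, and without any 1 of the 8 water arrays 0 or 1 were. The number of included probes called, however, went from 0 to 1899 over these 14 fits. It was 1899 without Flox DSS replicate 4, 1778 without GR iKO DSS replicate 3, 273 without GR iKO DSS replicate 4 and 78 without Flox DSS replicate 1, all of them more than 1.5 times the 27 with all arrays, 24 without GR iKO DSS replicate 1, and 0 or 1 without any of the 8 water arrays or without Flox DSS replicate 2. Unadjusted p values under 0.05 numbered 3563 to 6395 in the same fits, against 4706 with all arrays. Without the pair of arrays 4195 probes were called, the 27 among them, with 2 mice left in each DSS group.

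**Figure D5:**
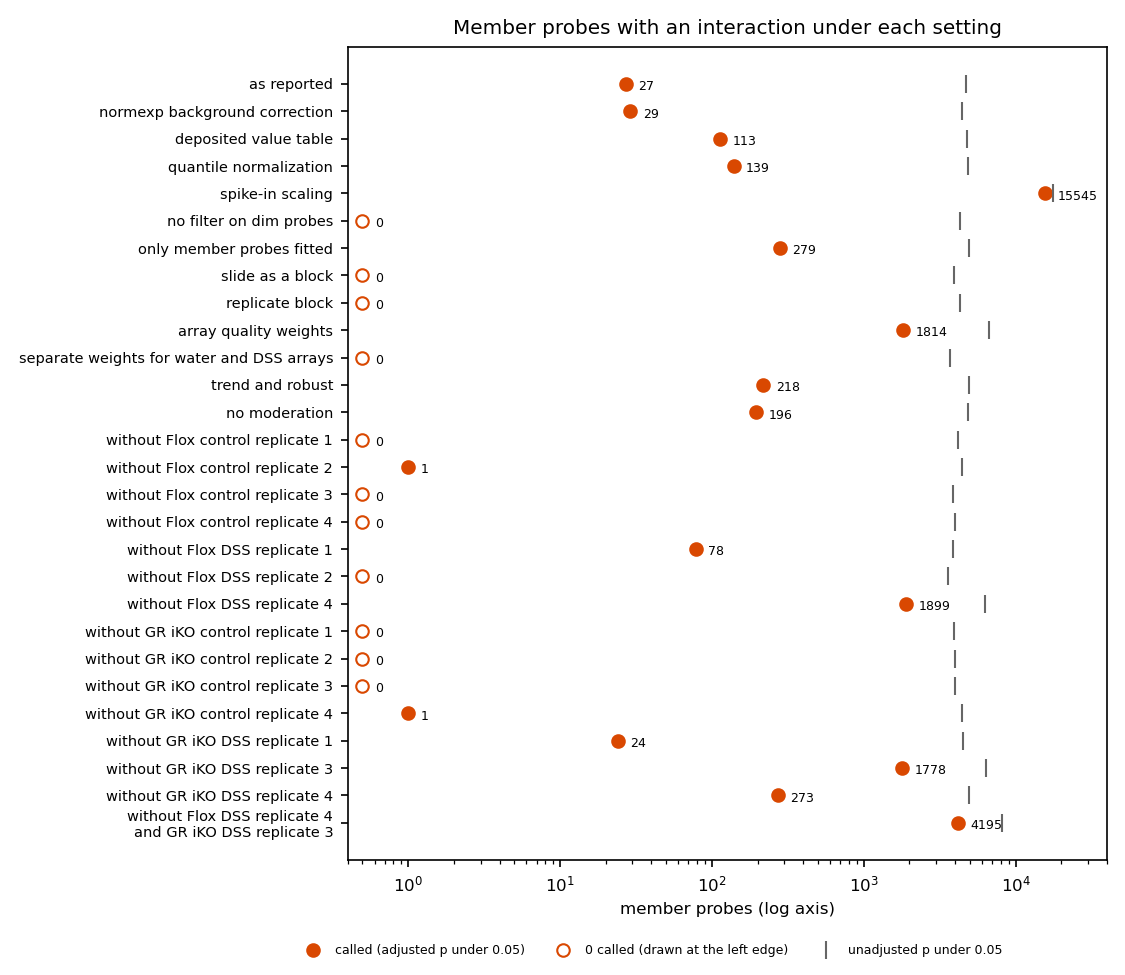
Included probes called for the interaction under each setting (orange points, log axis, 0 drawn as open points at the left edge) and included probes with an unadjusted p under 0.05 (grey bars). Calls run from 0 to 15545, the latter with spike-in scaling, and unadjusted counts from 3563 to 8154 in the other settings.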

How the data were processed

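Per the labels, RNA of 14 colons was hybridised to 1-colour Agilent arrays. The scanner files deposited by the authors hold the intensity of each spot from Agilent Feature Extraction 12.0.0.7, with background already subtracted and flags for each spot. A table of log2 values of the same arrays was also deposited by the authors, whose processing notes name Partek 6.6. Its lowest correlation with log2 processed signal on any array was 0.9988.

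Control spots (1639 of 45018) and spots marked as outliers (59 to 129 per array) were left out, and spots of 1 probe were averaged. Levels are log2 processed signal minus the 75th percentile of the array, which was 262 to 1003. Probes well above background were 62.6% to 71.3% per array, and the number of arrays limits the precision. Probes well above background on at least 3 arrays were tested with limma 3.58.1 (R 4.3.3) in 1 model of 4 groups, with Benjamini-Hochberg adjustment over all 29523. A gene is represented by its brightest included probe. Symbols came from RefSeq for 28223 of 29245 probes with an accession.

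Genes named are those called, further genes up to 12 per direction by p with an absolute interaction of at least 1, up to 3 per list by p, Nr3c1 and the separately assayed inflammation genes, and the 5 highest and 5 lowest interactions. A gene that this rule selected is not reported here. A few list members were named after their values were seen. The included genes, lists and tests were chosen with earlier results of these data known. Alternatives were normexp background correction (on median spot signal, since the mean was not used here), the deposited table, quantile and spike-in scaling (7 probes), other filters, slide or replicate blocks, weights, variance models and leaving out arrays. The procedure was run on simulated data with equal spread and with a larger spread on DSS. The requirement was only that the mean interaction be recovered under equal spread, and false calls were not part of it. Each mouse is a separate animal, and 94 included probes had a missing value.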

Additional observations from a re-analysis of the deposited data

Results flagged for a closer look

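A single water array lay far from the other 3 of its group in 16 of 296 groups of 4 examined, where chance gives about 1 in 20. Mt1 was at 2.62 in Flox control replicate 1, against 3.29 to 3.38 in the rest of its group. Hk2 was at 3.98 in GR iKO control replicate 4, against 4.44 to 4.51 in the rest of its group. Csf2rb was at 0.072 in GR iKO control replicate 2, against −0.67 to −0.59 in the rest of its group. Ddit4 was at 4.91 in Flox control replicate 4, against 5.15 to 5.16 in the rest of its group. Ccr7 was at −3.75 in GR iKO control replicate 4, against −3.17 to −3.09 in the rest of its group. Acadl was at 1.64 in GR iKO control replicate 1, against 1.75 to 1.76 in the rest of its group. Smad4 was at 3.57 in Flox control replicate 2, against 3.87 to 3.91 in the rest of its group. Slc39a4 was at 6.6 in GR iKO control replicate 2, against 6.21 to 6.28 in the rest of its group. Gstt1 was at −1.43 in Flox control replicate 4, against −1.06 to −0.99 in the rest of its group. Ncf1 was at −3.19 in GR iKO control replicate 2, against −3.45 to −3.43 in the rest of its group. Ccl4 was at −3.41 in GR iKO control replicate 4, against −4.26 to −4.24 in the rest of its group. Sdc1 was at 2.73 in Flox control replicate 4, against 3.27 to 3.27 in the rest of its group. F10 was at −5.26 in GR iKO control replicate 2, against −4.88 to −4.83 in the rest of its group. The JAK-STAT and SOCS list was at 0.14 in GR iKO control replicate 2, against −0.039 to −0.038 in the rest of its group. The phase II conjugation list was at −0.077 in Flox control replicate 4, against 0.039 to 0.059 in the rest of its group. The enteric nerve, glia and pacemaker cell list was at 0.31 in GR iKO control replicate 1, against −0.12 to −0.088 in the rest of its group.

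The DSS responses of the genotypes differed by the interaction test at the brightest probe of 14 genes. The interaction was 2.43 for Il11 (adjusted p 0.033), 2.05 for Unc5cl (adjusted p 0.033), −1.45 for Tfr2 (adjusted p 0.041), 1.14 for Rab11fip1 (adjusted p 0.041), −1.05 for Nexn (adjusted p 0.041), 1.99 for Ptges (adjusted p 0.041), −1.47 for Speg (adjusted p 0.041), 2.74 for Inhba (adjusted p 0.041), 2.22 for Il1rn (adjusted p 0.041), 1.08 for Hpse (adjusted p 0.041), 1.62 for Cd40 (adjusted p 0.044), 1.36 for Foxa1 (adjusted p 0.049), −1.0 for Nat14 (adjusted p 0.049) and −1.09 for Ppp1r14a (adjusted p 0.049). Each adjusted p is from limma over all probes tested, and none of the 14 was called when water and DSS arrays got their own weights.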

How the results depend on the processing

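Over 121 named genes, 3507 values under an alternative were compared with the reported one. Of these, 2715 kept direction and side of the threshold, or moved by less than the spread between mice. A total of 410 passed the threshold anew and 195 no longer passed it. Another 139 values without a test moved by more than the spread between mice, and 48 were counted as changed in sign. Within a slide, a change of sign was counted only for genes called with all arrays. Those of other genes are among the values that kept or moved. Of 810 list medians 81 moved by more than the spread between mice. The causes were not tested. The number of included probes called was 27 as reported. It was 29 with normexp, 11 of them shared, 113 with the deposited table, 139 with quantile normalization, 15545 with spike-in scaling, 279 with only included probes fitted, 1814 with array quality weights, 218 with trend and robust moderation, 196 with no moderation and 4195 without Flox DSS replicate 4 and GR iKO DSS replicate 3. It was 0 without a filter on dim probes, with slide as a block, with the replicate block and when water and DSS arrays got their own weights, where 4326, 3952, 4304 and 3700 had an unadjusted p under 0.05. Leaving out 1 array gave 0 to 1899. Same-numbered arrays of different groups correlated at −0.24 to 0.41 in their deviations over 18 pairs. Of 14 arrays, 4 correlated best with their own number. All arrays numbered 2 lay on slide 2 and all numbered 4 lay on slide 4, so the replicate block partly repeats the slide. Whether same-numbered mice were paired is not known here. With array quality weights the interaction changed sign to −0.15 for Adgre1. With normexp the interaction changed sign to 0.0014 for Nr3c1. With the replicate block the interaction changed sign to 0.0077 for Nr3c1. With slide as a block the interaction changed sign to 0.014 for Nr3c1. With spike-in scaling the interaction changed sign to 0.30 for Ppp1r14a, 0.34 for Nexn, 0.39 for Nat14, 0.35 for Smarca1, 0.35 for Dmtn, 0.26 for Taf9b, 0.28 for Cavin2, 0.28 for Plpp7, 0.23 for Zfp651, 0.13 for Rragd, 0.70 for Il11ra1, 0.44 for Cntfr, 0.77 for Bmpr1a, 0.57 for Ltbp1, 0.21 for Col14a1, 0.64 for Col16a1, 0.59 for Col11a1, 0.23 for Ptger3, 0.41 for Nkd1, 0.73 for Ndufb10, 0.80 for Ndufs7, 0.79 for Rpl38, 0.57 for Gstt1, 0.63 for Sult4a1, 1.04 for Gstm4, 0.73 for Slc39a13, 0.61 for Dpt, 0.59 for Sparc, 0.32 for Postn, 0.045 for Lmod1, 0.32 for Mylk, 0.046 for S100b, 0.60 for Stmn2, 0.51 for Acta1 and 1.36 for Nr3c1. With 1 array left out Nr3c1 ranged from −0.13 to 0.067. With 1 array left out Adgre1 ranged from −0.23 to 0.37. List medians are given here relative to the median of all included genes. They moved with all member probes of the list genes to 0.027 for iron and heme. They moved with array quality weights to 0.081 for JAK-STAT, −0.10 for activin, 0.26 for metalloproteinase, −0.56 for collagens, 0.41 for phase II conjugation, −0.50 for fibroblast and −1.04 for enteric nerve. They moved without that pair of arrays to −0.14 for activin, 0.22 for metalloproteinase, −0.56 for collagens, 1.20 for cell cycle, 0.36 for phase II conjugation, −0.55 for fibroblast and −1.18 for enteric nerve. They moved with normexp background correction to −0.0035 for activin, 0.31 for metalloproteinase and 0.26 for T and NK cell. They moved with replicate block to 0.17 for activin. They moved within slide 1 to 0.34 for IL-1 family, 0.090 for IL-6 family, 0.084 for CC chemokine, 0.22 for separately assayed inflammation, −0.35 for MHC class I, 0.068 for MHC class II, 0.55 for AP-1, −0.043 for collagens, −0.18 for glycolysis and hypoxia, −0.35 for prostaglandin, 0.80 for tight junctions, −0.86 for cell cycle, −0.35 for macrophage, 4.22 for B and plasma cell, −0.062 for fibroblast, −0.37 for smooth muscle, 0.37 for adipocyte and −1.66 for pancreatic acinar. They moved within slide 4 to 1.67 for IL-1 family, 0.14 for CC chemokine, 0.40 for JAK-STAT, 2.65 for separately assayed inflammation, 1.07 for MHC class I, 2.03 for MHC class II, 0.22 for activin, −0.19 for collagens, 0.86 for glycolysis and hypoxia, −0.028 for prostaglandin, 0.27 for tight junctions, −0.52 for phase II conjugation, 0.93 for macrophage and −1.23 for B and plasma cell. With 1 array left out they ranged from −0.44 to 0.032 for IL-6 family, 0.069 to 0.89 for CC chemokine, 0.25 to 0.47 for NF-kB, 0.10 to 0.37 for JAK-STAT, 1.14 to 2.08 for separately assayed inflammation, 0.29 to 0.95 for MHC class II, 0.19 to 0.52 for AP-1, 0.013 to 0.32 for activin, 0.22 to 0.64 for metalloproteinase, −0.58 to −0.17 for collagens, 0.24 to 0.60 for glycolysis and hypoxia, 0.33 to 0.65 for tight junctions, −0.11 to 0.39 for phase II conjugation, −0.018 to 0.30 for iron and heme, 1.18 to 2.87 for B and plasma cell, −0.52 to −0.19 for fibroblast and −1.53 to −0.86 for smooth muscle. Weak signal limits genes near background, and Slc5a8 has no value under settings that need its missing array.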
